A study of Mus musculus with 4 samples.

Results

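The genes described are 33 mouse genes of protein folding and quality control in the endoplasmic reticulum (ER), taken by symbol from a count table of 54532 genes. Each symbol had a single entry. By role, 3 are stress sensors or their transcription factors, 11 are chaperones and chaperone partners, 8 are disulfide isomerases and related oxidoreductases, 9 serve ER-associated degradation and 2 form the translocon. All 33 were expressed enough to be tested, among 13884 genes in all. The libraries came from mouse primary T cells, that is, cells taken from animals, cultured in serum with IL2 and with CD3/28 beads, which mimic the signal of antigen. A set of 2 libraries from cells treated with PTC was compared with a set of 2 Control libraries, all labelled 12 h. What PTC stands for, its dose, and the strain, sex and age of the mice and the T cell subset are not in the labels. Nothing there says that replicates were separate cultures or animals. The p-values therefore rest on the spread between these 4 libraries, and part or all of it may be technical.

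Secreted and membrane proteins enter the ER through the SEC61 channel and fold there with the help of the HSP70 protein BiP, the HSP90 protein GRP94, the lectins calreticulin and calnexin and the disulfide isomerases. When unfolded protein accumulates, the sensors IRE1 (gene Ern1), ATF6 and PERK (gene Eif2ak3) signal to the nucleus, IRE1 by splicing the mRNA of Xbp1, and the transcription factors ATF6 and XBP1 raise chaperone and degradation genes. Proteins that fail to fold are passed back to the cytosol by the SEL1L and HRD1 (gene Syvn1) ubiquitin ligase complex and destroyed. Activated T cells pass through this response as they begin to make cytokines, granule proteins and surface receptors.

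ATF6 and XBP1 act through the ER stress response element, ERSE, spelled CCAAT, then 9 bases of any kind, then CCACG. It was searched on both strands of RefSeq promoter windows (GRCm38.p6, from 250 bases before to 50 bases after each annotated start), which matched 27 of the 33 genes. The element stood in 9 of these 27 and in 37 of 27025 genes with a window, or 0.137%. The genes were listed for their role in a response that acts through this element. Its share among them is therefore not independent of that choice and gives no separate support. The 10 matches to the element are shown as a description. Of the 4 genes called below, Pdia6 and Calr hold it and Pdia3 and Sel1l do not. They read in the direction of the element, with its fixed bases in capitals:
Calr: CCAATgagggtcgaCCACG
Canx: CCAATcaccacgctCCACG
Creld2: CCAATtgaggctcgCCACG
Derl3: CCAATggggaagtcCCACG
Dnajc3: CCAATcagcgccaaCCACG
Hsp90b1, nearer match: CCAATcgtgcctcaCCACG
Hsp90b1, farther match: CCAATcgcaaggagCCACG
Hspa5: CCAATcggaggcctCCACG
Pdia6: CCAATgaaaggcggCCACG
Syvn1: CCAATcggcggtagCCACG

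The first base of the match lay 65 bases before the RefSeq start in Hspa5 (chr2:34772025-34772043), 98 in Pdia6 (chr12:17266491-17266509) and 162 in Calr (chr8:84847075-84847093, opposite strand). In Hsp90b1 the matches began 107 (chr10:86705533-86705551, opposite strand) and 212 bases (chr10:86705638-86705656, gene strand) before the start. The shorter form ERSE-II, spelled ATTGG, 1 base of any kind and CCACG, and found in 0.0444% of genes with a window, was present in Dnajb11 and Herpud1. An XBP1 site core, spelled TGACGTGG and found in 0.714% of genes, was present in Txndc5, which has 3 windows. That match (chr13:38528045-38528052) lay inside the annotated gene, which begins at 38528824 on the minus strand. The ERSE of Hspa5 also lay inside its annotated gene, which begins at 34771970. The ERSE-II of Dnajb11 began 7 bases after the RefSeq start. ERSE and ERSE-II share the CCACG end, and no gene among the 27 held both. A match is a description of these letters and does not show that a factor binds there.

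The upstream sequences of 2 genes that passed the test below, Pdia6 and Calr, and of Hsp90b1, which holds the element at 2 places, are shown 5′ to 3′ on the gene's strand with ERSE in capitals. Each stops before the outermost annotated start of the gene. Sel1l, the single gene called lower, held no ERSE, and in its sequence capitals mark every CCAAT and CCACG on either strand (4 and 1), none of them at the spacing of the element. The windows are chr12:17266339-17266544 (plus strand) for Pdia6, chr8:84846935-84847181 (minus) for Calr, chr10:86705510-86705694 (minus) for Hsp90b1 and chr12:91849158-91849407 (minus) for Sel1l.
Pdia6: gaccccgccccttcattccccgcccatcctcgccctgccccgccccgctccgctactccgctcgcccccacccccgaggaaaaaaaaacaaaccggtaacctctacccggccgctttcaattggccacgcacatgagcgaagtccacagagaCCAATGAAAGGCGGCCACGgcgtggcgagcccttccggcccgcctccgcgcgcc
Calr: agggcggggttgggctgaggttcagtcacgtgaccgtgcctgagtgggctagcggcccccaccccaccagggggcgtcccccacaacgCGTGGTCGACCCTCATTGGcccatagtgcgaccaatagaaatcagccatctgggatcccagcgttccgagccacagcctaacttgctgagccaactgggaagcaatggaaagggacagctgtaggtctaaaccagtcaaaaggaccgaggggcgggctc
Hsp90b1: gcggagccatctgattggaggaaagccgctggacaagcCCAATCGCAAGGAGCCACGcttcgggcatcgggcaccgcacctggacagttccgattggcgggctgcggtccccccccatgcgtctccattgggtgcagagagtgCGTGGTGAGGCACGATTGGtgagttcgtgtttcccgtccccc
Sel1l: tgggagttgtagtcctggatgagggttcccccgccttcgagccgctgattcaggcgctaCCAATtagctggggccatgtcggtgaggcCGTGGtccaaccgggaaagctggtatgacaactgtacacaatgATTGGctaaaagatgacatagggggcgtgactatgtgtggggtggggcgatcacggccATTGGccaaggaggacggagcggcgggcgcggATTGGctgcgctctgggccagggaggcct

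Library totals ran from 15458818 to 16639911 counts, and mitochondrially encoded genes took 1.07% to 1.12% of them. Levels below are CPM, counts scaled to library size, with the trimmed mean of M values (TMM) as the scaling, and fold changes are PTC over Control. All 12 T cell markers were expressed, from Cd4 at 130 ± 6.77 CPM in PTC and 112 ± 1.26 CPM in Control cells to Cd8b1 at 983 ± 33.3 and 844 ± 17.9 CPM (SD, n = 2 each). Their sum was 5848 and 5981 CPM in the PTC libraries, against 5441 and 5299 CPM in the Control libraries. None of the 12 was called by edgeR, and 6 were higher at an unadjusted p under 0.05, against 6.01% of all genes tested. The 11 myeloid markers summed to 1523 and 1344 CPM in PTC, against 1081 and 1088 CPM in Control libraries, most of it Lyz2. The other 10 together stood at 164 and 168 CPM in PTC, against 215 and 201 CPM in Control libraries. Of the 11 genes edgeR called 2 higher (Lyz2 and S100a8) and 3 lower (Mpo, Elane and Cd14), and the median log2 fold change was 0.05. In bulk samples fewer cells of a type and less RNA per cell cannot be told apart.

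With PTC, 3 of the 33 genes rose and 1 fell by edgeR's quasi-likelihood test at a Benjamini-Hochberg adjusted p under 0.05 over all 13884 genes. The disulfide isomerase genes Pdia6 and Pdia3 rose 1.37-fold and 1.31-fold, the calreticulin gene Calr rose 1.33-fold, and the degradation gene Sel1l fell to 72.4% of its Control level. Across all genes tested 0.591% were called higher and 0.763% lower. Many of those genes have lower counts than the 33. Among 10910 genes averaging at least 50 counts, which held 32 of the 33, 100 were called higher and 123 lower. The calls among these 32 were again 3 and 1. The fold change was positive for 25 of the 33 genes, against 49.3% of all genes tested, and the median log2 fold change was 0.08, against -0.003 for all genes. It was positive for all 12 T cell markers too, with a median of 0.14. The summed level of the 33 genes was 1.11 times as high in PTC as in Control libraries, and that of the T cell markers 1.10 times. In 14 of the 33 genes both PTC libraries lay above both Control libraries, which 21.3% of all genes did. In 5 of the 33 both lay below, which 22.2% did. At an unadjusted p under 0.05, 10 of the 33 were higher and 2 lower, against 6.01% and 6.89% of all genes. DESeq2 called 4 higher and 1 lower (1.02% and 0.91% of the genes it tested), and limma-voom 3 and 1 (0.655% and 0.756%). All 4 edgeR calls were lost without the replicate PTC 1. Without it no gene of the 33 was called, and the log2 fold changes were still 0.43 for Pdia6 (adjusted p = 0.064), 0.39 for Calr (0.189), 0.31 for Pdia3 (0.476) and -0.41 for Sel1l (0.120). In that fit the spread came from the Control libraries alone, and 73 of all genes were called, against 188 with all 4 libraries.

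**Figure D1:**
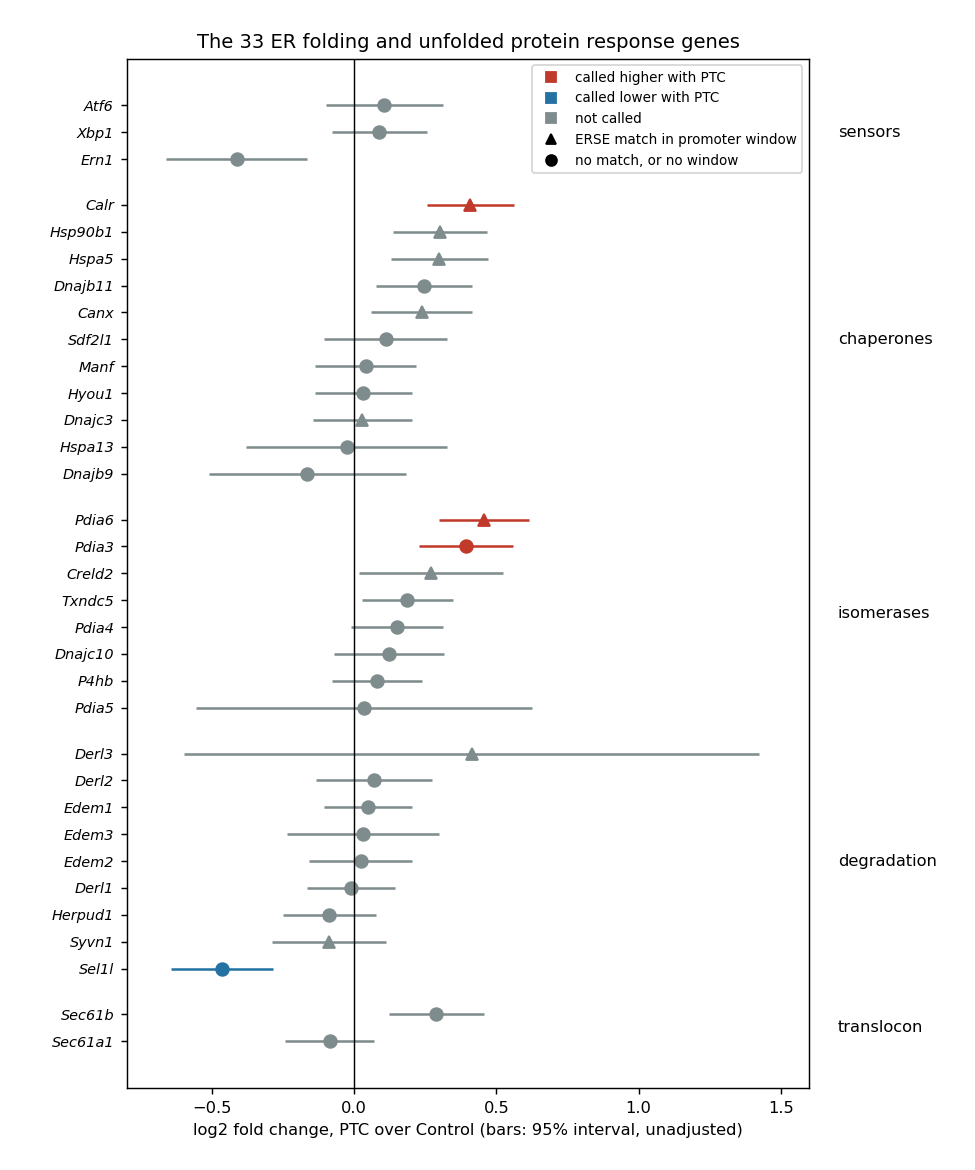
Log2 fold change (PTC over Control) of each of the 33 genes, grouped by role, with its 95% interval from the quasi-likelihood fit, not adjusted for the number of genes. Red marks genes called higher, blue the gene called lower, grey those not called, and triangles mark an ERSE match in the promoter window. The chaperone and isomerase rows lie mostly right of 0. The degradation rows lie around 0 apart from Sel1l at -0.47 and Derl3 at 0.41, which has the widest interval.

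Among the sensors, Ern1, which encodes the kinase and RNase IRE1, stood at 19.4 and 20.3 CPM in PTC libraries, against 27.3 and 25.7 CPM in Control libraries. The groups did not overlap, and the level with PTC was 75.1% of Control. Its log2 fold change of -0.41 ± 0.12 (SE) missed the threshold (edgeR adjusted p = 0.098). Xbp1, whose mRNA is the substrate of IRE1, stood at 157 and 146 CPM in PTC libraries, against 150 and 136 CPM in Control libraries. These values overlapped, and the 95% interval of the log2 fold change ran from -0.08 to 0.25. Counts per gene do not separate the spliced from the unspliced form of Xbp1, so splicing was not measured. Atf6, the membrane-bound factor that is cut free in the Golgi, stood at 48.3 and 44.7 CPM in PTC libraries and at 45.0 and 41.4 CPM in Control libraries, also overlapping (log2 fold change 0.11, interval -0.10 to 0.31). Eif2ak3, which encodes the remaining sensor PERK, stood at 40.5 and 34.7 CPM in PTC libraries and at 36.6 and 41.9 CPM in Control libraries. Its log2 fold change was -0.06 (interval -0.29 to 0.17).

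The chaperones formed the role with the highest ratio of summed levels. They summed to 1671 and 1578 CPM in PTC libraries, against 1363 and 1342 CPM in Control libraries, 1.20 times as much. Of the difference of 272.3 CPM, 57.8% lay in Calr. The 10 other chaperone genes together stood at 1024 and 947 CPM in PTC libraries and at 876 and 865 CPM in Control libraries. The T cell marker sum, over different genes, was 1.10 times as high in PTC as in Control libraries and the myeloid marker sum, carried by Lyz2 and lower in PTC libraries without it, 1.32 times. The part of either in the chaperone levels was not tested.

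Calr (ENSMUSG00000003814, chromosome 8, 84841850 to 84846934, minus strand, GRCm38) encodes calreticulin, a soluble lectin that holds newly glycosylated proteins and stores calcium. Its level was 647 and 631 CPM in PTC libraries, against 487 and 477 CPM in Control libraries. Both PTC libraries lay above both Control libraries, and each pair lay close together. Its log2 fold change was 0.41 ± 0.07 (SE; edgeR adjusted p = 0.0073), and the call was lost without PTC 1 (0.189) and without PTC 2 (0.069). Canx, which encodes calnexin, the membrane-bound counterpart, stood at 212 and 188 CPM in PTC libraries and at 159 and 181 CPM in Control libraries. Here the lower PTC and the higher Control library were close, and the adjusted p was 0.212. Without Control 2 it was 0.037.

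Hspa5 encodes BiP, the HSP70 chaperone that also keeps the sensors inactive. It stood at 235 and 202 CPM in PTC libraries, against 179 and 177 CPM in Control libraries. Both PTC libraries lay above, the log2 fold change was 0.30 ± 0.08 (SE), and the adjusted p of 0.080 missed the threshold. Hsp90b1, which encodes GRP94, stood at 105 and 97.2 CPM in PTC libraries, against 82.7 and 81.1 CPM in Control libraries (log2 fold change 0.30, adjusted p = 0.066). The groups did not overlap in this gene either. Both passed with no filter on low counts (0.014 for Hspa5 and 0.033 for Hsp90b1), Hspa5 also by DESeq2 (0.048), and Hsp90b1 also under upper-quartile scaling (0.047) and without Control 1 (0.048). Exons of other annotated genes overlap 15.7% of the Hsp90b1 exon bases, so part of its count depends on how reads in the overlap were assigned.

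The co-chaperone genes of BiP had fold changes of both signs, and none was called. Dnajb11, which encodes the J-domain protein ERdj3, stood at 95.7 and 88.8 CPM in PTC libraries, against 78.8 and 76.8 CPM in Control libraries, with no overlap and an adjusted p of 0.162. Dnajc3, which encodes the J-domain protein p58IPK, stood at 71.0 and 73.5 CPM in PTC libraries and at 68.2 and 73.5 CPM in Control libraries. Dnajb9, the gene of ERdj4, which holds IRE1 inactive, was low, at 8.91 and 8.90 CPM in PTC libraries, against 9.97 and 9.99 CPM in Control libraries. Its log2 fold change was -0.16 (interval -0.51 to 0.18). Sdf2l1, Manf, Hyou1 and Hspa13, which encode an ERdj3 partner, a secreted ER stress protein, a BiP exchange factor and an HSP70-like ATPase, had log2 fold changes of 0.11, 0.04, 0.03 and -0.03. All 4 overlapped between groups, and each turned its sign when at least 1 of the libraries was left out.

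**Figure D2:**
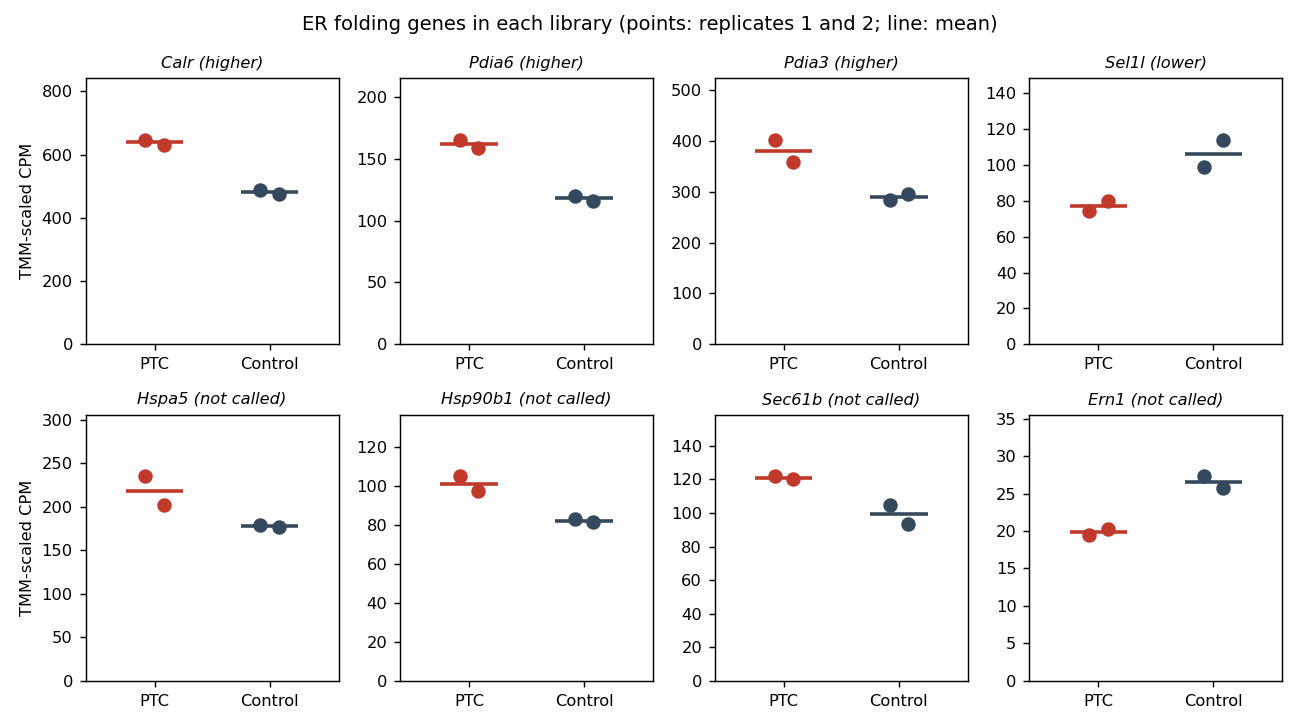
TMM-scaled CPM of 8 genes in each library, with PTC left of Control, points for replicates 1 and 2 and a line at their mean. The PTC points lie above the Control points for Calr, Pdia6, Pdia3, Hspa5, Hsp90b1 and Sec61b, and below them for Sel1l and Ern1. Panel titles give the edgeR call.

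All 8 isomerase genes had a positive log2 fold change, from 0.03 for Pdia5 to 0.46 for Pdia6, with a median of 0.17, though that of Pdia5 turned negative without PTC 1 or without Control 2. In 7 of the 8 both PTC libraries lay above both Control libraries, which 21.3% of all genes did. The 2 called genes were Pdia6 and Pdia3, and 4 had an unadjusted p under 0.05, against 6.01% of all genes in this direction. Their levels summed to 1623 and 1551 CPM in PTC libraries, against 1400 and 1353 CPM in Control libraries. Pdia6 and Pdia3 made up 64.0% of that difference. Without these, the other 6 genes stood at 1055 and 1033 CPM in PTC libraries and at 995 and 941 CPM in Control libraries.

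Pdia6 (ENSMUSG00000020571, chromosome 12, 17266545 to 17284770, plus strand) encodes an isomerase that works with BiP and also damps IRE1 signalling. It stood at 165 and 159 CPM in PTC libraries, against 120 and 116 CPM in Control libraries. The gap between groups was several times the gap within either. The log2 fold change was 0.46 ± 0.08 (SE; edgeR adjusted p = 0.0036), the smallest p of the 33 genes. Pdia3 (ENSMUSG00000027248, chromosome 2, 121413775 to 121438687, plus strand) encodes ERp57, the isomerase that calreticulin and calnexin bring to glycoproteins. It stood at 403 and 360 CPM in PTC libraries, against 284 and 296 CPM in Control libraries. The PTC libraries lay further apart from each other than the Control libraries, and the log2 fold change was 0.39 ± 0.08 (SE; adjusted p = 0.016). Its window held 2 CCAAT and 0 CCACG.

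Txndc5, which encodes the isomerase ERp46, stood at 127 and 121 CPM in PTC libraries, against 106 and 112 CPM in Control libraries (adjusted p = 0.297). Exons of genes on the opposite strand, Bmp6 among them, overlap 11.9% of its exon bases, and the strand setting of the counts is not stated. Creld2, a stress-induced gene with isomerase activity, had a log2 fold change of 0.27, Pdia4 one of 0.15 and Dnajc10, which encodes the reductase ERdj5, one of 0.12. P4hb, the gene of protein disulfide isomerase itself, stood at 706 and 704 CPM in PTC libraries, against 693 and 641 CPM in Control libraries. The log2 fold change of this gene was 0.08 (interval -0.08 to 0.24), so a rise as large as that of Pdia6 lay outside its interval.

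Sel1l (ENSMUSG00000020964, chromosome 12, 91806043 to 91849157, minus strand) encodes the adaptor that carries misfolded proteins to the ligase HRD1. Its level was 74.2 and 80.0 CPM in PTC libraries, against 98.8 and 114 CPM in Control libraries. Both PTC libraries lay below both Control libraries, and the Control libraries differed by more from each other than the PTC libraries did. The log2 fold change was -0.47 ± 0.09 (SE; edgeR adjusted p = 0.0086). The call held without PTC 2 or either Control library. The log2 fold change was -0.52 without PTC 2, -0.56 without Control 1 and -0.35 without Control 2.

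The partners of Sel1l had fold changes nearer 0. Syvn1, the ligase gene, stood at 42.5 and 43.4 CPM in PTC libraries, against 44.1 and 47.2 CPM in Control libraries, a log2 fold change of -0.09 (interval -0.29 to 0.11). Herpud1, which encodes an organiser of the complex, stood at 131 and 137 CPM in PTC libraries and at 136 and 149 CPM in Control libraries, also -0.09 (interval -0.25 to 0.07). The lower bounds of both intervals lay above the log2 fold change of Sel1l. The interval of Sel1l itself ran from -0.646 to -0.285. It overlapped slightly with that of Syvn1, which began at -0.288, and not with that of Herpud1. The difference between the genes was not tested. The channel genes Derl1 and Derl2 had log2 fold changes of -0.01 and 0.07. The mannosidase-like genes Edem1, Edem2 and Edem3, which mark glycoproteins for disposal, had 0.05, 0.02 and 0.03. Derl3 had 13 and 26 counts in PTC libraries and 18 and 11 counts in Control libraries, and its interval from -0.60 to 1.42 leaves any change of moderate size undetectable at this depth. The 9 degradation genes summed to 860 and 866 CPM in PTC libraries, against 880 and 904 CPM in Control libraries. Without Sel1l the other 8 stood at 786 and 786 CPM in PTC libraries and at 781 and 790 CPM in Control libraries.

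The translocon genes differed in sign. Sec61b, the small beta subunit, stood at 122 and 120 CPM in PTC libraries, against 105 and 93.6 CPM in Control libraries, with no overlap (log2 fold change 0.29, adjusted p = 0.084). It passed without Control 1 (0.012) and with no filter on low counts (0.036). Transcripts of other genes share 15.3% of the 50-base words of its longest transcript, so this count is uncertain. Sec61a1, the channel subunit, stood at 253 and 264 CPM in PTC libraries, against 280 and 268 CPM in Control libraries (log2 fold change -0.09, interval -0.24 to 0.07). Transcripts of other genes share 14.6% of its words.

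**Figure D3:**
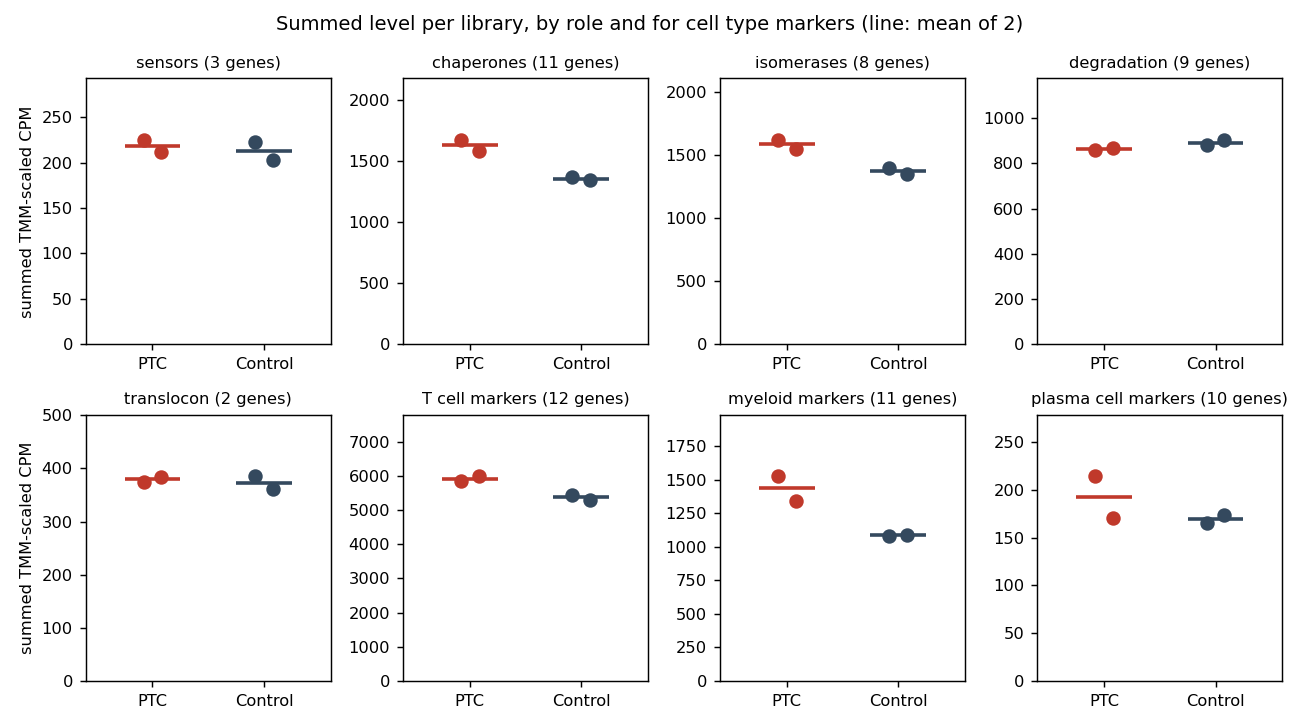
Summed TMM-scaled CPM of each role, and of T cell, myeloid and plasma cell markers, in each library, with PTC left of Control and a line at the mean of the 2 libraries. Chaperones and isomerases, and T cell markers and the Lyz2-led myeloid sum, lie higher in both PTC libraries, while degradation genes lie slightly lower. The sums of the sensors, the translocon and the plasma cell markers, the last led by Irf4, overlap. Of the 9 plasma cell markers tested singly, 7 had a positive log2 fold change and 2 a negative one.

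Plasma cells carry an abundant ER, so their markers were read beside these genes. The 10 markers summed to 214 and 171 CPM in PTC libraries, against 165 and 174 CPM in Control libraries. Most of it was Irf4, which activated T cells also express. Irf4 stood at 137 and 118 CPM in PTC libraries and at 116 and 126 CPM in Control libraries. Of the 9 markers tested, 7 had a positive log2 fold change and 2 a negative one, with a median of 0.48. At an unadjusted edgeR p under 0.05, 4 were higher and 0 lower, against 6.01% and 6.89% of all genes. They were Mzb1, Ighg1, Ighg2b and Ighg2c, with log2 fold changes of 0.93, 0.63, 0.65 and 0.73. Jchain stood at 4.10 and 1.41 CPM in PTC libraries and at 1.85 and 2.07 CPM in Control libraries, and Tnfrsf17 had 0 counts in all 4. The immunoglobulin genes Ighg2c and Igkc rose, with log2 fold changes of 0.73 and 0.77 (adjusted p = 0.021 and 0.0032), and so did the myeloid genes Lyz2, with 0.53 (0.0017), and S100a8, with 0.69 (0.014). Without PTC 1 none of these 4 calls held (0.467, 0.0501, 0.131 and 0.152), and that of Ighg2c was also lost without Control 2 (0.092). The myeloid genes Elane, Mpo and Cd14 fell, with log2 fold changes of -2.36, -1.70 and -0.80 (adjusted p = 4.0e-05, 8.9e-06 and 0.013). The log2 fold change of Elane was -3.23 without PTC 2, and the call of Cd14 was lost without Control 1 (0.074). Among 5 mast cell and basophil markers, Cpa3 was called higher (edgeR adjusted p = 0.0095). It stood at 68.0 and 62.3 CPM in PTC libraries, against 42.5 and 48.9 CPM in Control libraries. The other 4 had negative log2 fold changes and were not called. The part of all these markers in the levels of the 33 genes was not tested.

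Levels per length (TPM, from the deposited gene length, without TMM scaling) put P4hb highest, at 597 ± 16.8 TPM in PTC and 583 ± 22.6 TPM in Control cells (SD, n = 2 each). Calr followed at 538 ± 23.3 TPM in PTC and 419 ± 0.934 TPM in Control cells, then Pdia3 at 294 ± 31.1 and 232 ± 10.7 TPM and Sec61b at 231 ± 7.97 and 195 ± 12.1 TPM. The first 5 ranks, down to Derl1, were the same in both groups. Pdia6 ranked 11 in PTC and 14 in Control cells. Sel1l, at 21.8 ± 0.603 TPM in PTC and 31.2 ± 3.70 TPM in Control cells, ranked 24 and 23. The lowest were Hspa13, Pdia5 and Derl3, the last at 1.47 ± 0.605 and 1.15 ± 0.388 TPM.

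Of the 9 genes with an ERSE match, 8 had a positive log2 fold change, with a median of 0.30 and a range from -0.09 for Syvn1 to 0.46 for Pdia6. Of the 18 genes with a window and no match, 14 were positive, with a median of 0.08 and a range from -0.47 for Sel1l to 0.39 for Pdia3. The 2 ranges overlapped, and calls higher numbered 2 of 9 and 1 of 18. The elements were looked up with the fold changes known, so no test was made.

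A wider list of 110 further genes of ER entry, glycosylation, oxidative folding, chaperoning and degradation, of which 106 were tested, was set beside the 33. None of it was called higher by edgeR, DESeq2 or limma-voom, and 9 were higher and 4 lower at an unadjusted p under 0.05, against 6.01% and 6.89% of all genes. Their summed level was 9745 and 9815 CPM in PTC libraries, against 9840 and 9649 CPM in Control libraries, and the median log2 fold change was 0.02. The list held 23 tested genes of translocation and signal peptide cleavage, 18 of N-glycosylation, 14 of oxidative folding, 16 other chaperones and prolyl isomerases and 23 of degradation, with 0 calls in each by edgeR. The ERSE stood in 0 of the 82 with a promoter window. Within the 12 transducer and feedback genes Ppp1r15a fell. It encodes GADD34, which restarts translation after PERK signalling by removing the phosphate from eIF2alpha. Ppp1r15a stood at 34.5 and 36.3 CPM in PTC libraries, against 53.1 and 45.6 CPM in Control libraries, a log2 fold change of -0.48 ± 0.10 (SE; edgeR adjusted p = 0.024). The groups did not overlap. The call was lost without PTC 1 (0.188) and without Control 1 (0.110).

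**Figure D4:**
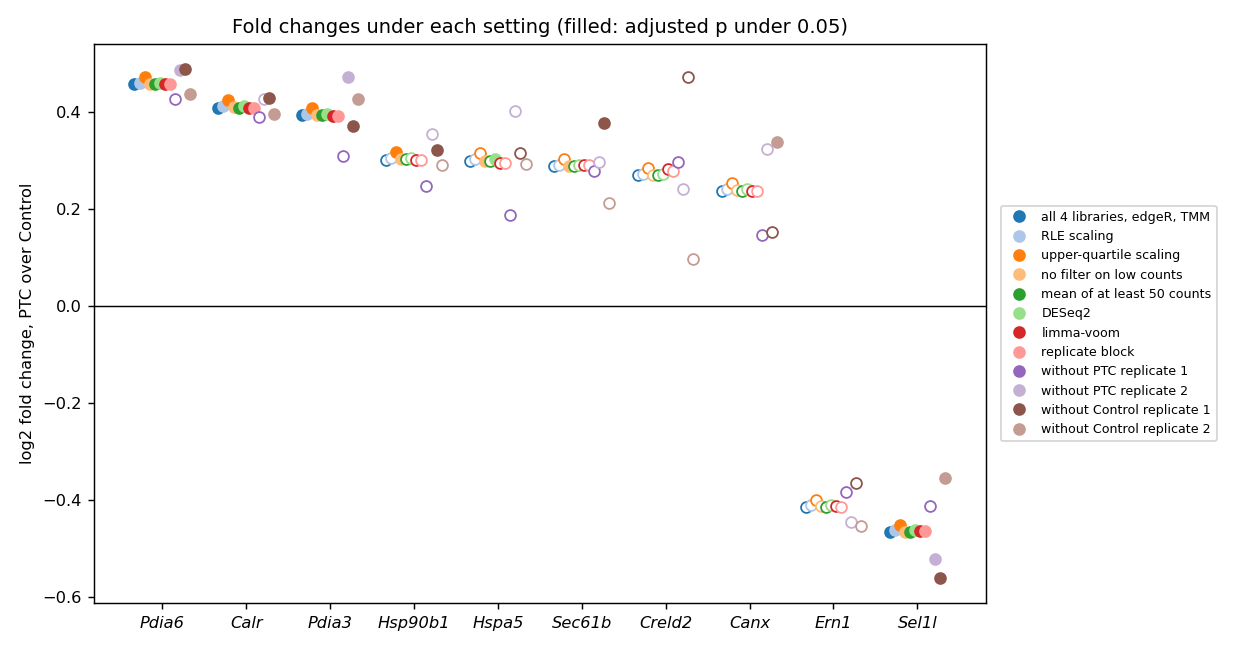
Log2 fold change (PTC over Control) of 10 of the 33 genes under each of 12 settings, filled where the adjusted p was under 0.05. The points of Pdia6, Calr and Pdia3 stay above 0.3 and those of Sel1l below -0.3 under every setting shown, while their points without PTC 1 are open. Hspa5 and Hsp90b1 lie at 0.19 or above throughout and are filled in some settings.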

How the data were processed

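RNA-seq read counts of mouse primary T cells (PTC, n = 2; Control, n = 2; 12 h) were used as deposited. The authors made these whole-number counts per gene, without normalization, before deposit. Per the submitters' processing notes, CASAVA 1.8, HISAT2 2.0.5 and featureCounts 1.5.0-p3 were used. Build, strand setting and multi-mapping rule: not given in the sources used here. The coordinates of all 33 genes equalled GENCODE M21 on GRCm38. The table holds 2 further count columns that match no sample and were not used. Groups came from the treatment label.

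Genes were filtered with filterByExpr, scaled by TMM and tested with edgeR 4.0.16 (glmQLFit, glmQLFTest, R 4.3.3) on the group alone, with Benjamini-Hochberg adjustment over 13884 genes. Standard errors are the log2 fold change over the root of F. The procedure was also run on counts simulated with the dispersion of the same fit. Such counts cannot show how far the calls rest on single libraries. A count of 0 allows up to 3 counts, or 0.184 to 0.195 CPM, counting error only. The common dispersion was 0.00486. Alternatives were RLE and upper-quartile scaling, 2 filters, DESeq2 1.42.0, limma-voom 3.58.1, a replicate block and leaving out each library. Genes named in full were those called, the sensors and the 3 smallest p per role. The genes, lists and motifs were chosen with earlier results of these data known. Promoter sequences are from RefSeq. Shared sequence is the share of a longest transcript's 50-base words found in other genes.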

Additional observations from a re-analysis of the deposited data

How the results depend on the processing

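With all 4 libraries, the calls of Pdia6, Calr, Pdia3 and Sel1l held under RLE and upper-quartile scaling, both filters, DESeq2, limma-voom and the replicate block. With no filter on low counts 6 of the 33 genes were called higher, against 3, and 432 genes in all, against 188. Leaving out each library in turn gave 0 to 5 of the 33 genes called higher, 0 to 1 called lower, 73 to 369 of all genes called, 0 to 2 further pathway genes called higher, 0 to 2 called lower, and a median log2 fold change of the 33 genes from 0.053 to 0.14. Of the values of the 33 single genes, 110 of 132 with a library left out and 224 of 230 under other settings kept their direction and their side of the threshold. Signs turned, at an adjusted p of 0.71 or more each time, for 10 of the 33 genes and for Eif2ak3, whose log2 fold changes lay near 0 or whose counts were low. With each library left out in turn they ran from -0.056 to 0.31 for Sdf2l1, from -0.035 to 0.13 for Manf, from -0.056 to 0.12 for Hyou1, from -0.018 to 0.087 for Dnajc3, from -0.23 to 0.15 for Hspa13, from -0.12 to 0.83 for Derl3, from -0.025 to 0.16 for Derl2, from -0.025 to 0.083 for Edem2, from -0.038 to 0.027 for Derl1, from -0.27 to 0.43 for Pdia5 and from -0.18 to 0.047 for Eif2ak3. Upper-quartile scaling put Derl1 at 0.0048. The cause was not tested. In the labels replicates share only a number between the groups, and whether they were paired is not stated. Over 13884 genes the deviations of same-numbered libraries had a correlation of -0.05, which alone cannot settle it. With the replicate block 3 of the 33 genes were called higher and 1 lower, and 237 genes in all. DESeq2 gave no adjusted p for Derl3 and Pdia5. Low counts limit Derl3, Pdia5, Dnajb9 and Hspa13, whose intervals are the widest.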
